A study of Mus musculus with 221 samples.

Results

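Tnc, Ptn, Mdk, Ptprz1, Sdc2, Sdc4, Bcan, Ncan, Vcan and Sparc encode matrix proteins of the developing cortex, growth factors bound to that matrix, and their receptors. These 10 genes were chosen by name as ligand, receptor and matrix partners, with earlier results of these data known. They are 10 of the 23244 features of an expression table of 221 single cells. The cells came from the microdissected medial neocortex of C57BL/6J mice at E18.5, an embryonic age close to birth. There were 2 pools of 8 neocortices each, with 99 of the cells from pool 2 and the others from pool 1, and the labels name no treatment and no altered allele. The study's title is about Hopx, a small homeodomain protein, and the basal radial glia that need it. The labels name no cell types, so cells were put in classes by marker genes that did not include any of the 10 genes, and the pool served as the replicate (n = 2).

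Radial glia act as stem cells while the cortex is built. They give rise to intermediate progenitors, which are marked by the transcription factor Eomes and divide to produce excitatory neurons, while cortical interneurons migrate in from the ventral forebrain. The matrix between these cells is rich in hyaluronan, in proteins with chondroitin sulfate chains and in tenascins. Ptprz1 is a receptor tyrosine phosphatase that carries chondroitin sulfate itself, binds tenascin-C, and is inhibited when pleiotrophin (Ptn) or midkine (Mdk) binds it. Tnc and Ptprz1 are widely used as markers of basal (outer) radial glia in the human cortex.

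Radial glia-like cells were those with at least 5 of 8 markers (Sox2, Sox9, Pax6, Hes1, Hes5, Slc1a3, Mfge8 and Nes) and no Eomes, where detected means above the lowest value of that cell. There were 18 such cells, 9 in each pool, or 8.14% of all cells (exact Clopper-Pearson 95% interval 4.90 to 12.6%, counting error only). Eomes-positive cells numbered 33 (18 and 15 by pool), newborn neuron-like cells with Neurod1 and at least 2 of 6 excitatory markers 60 (29 and 31), excitatory neuron-like cells without Neurod1 79 (49 and 30) and interneuron-like cells with at least 3 of 6 markers 28 (15 and 13). A further 2 cells had markers of other types and 1 cell fitted no class. The classes are ranges of a marker count, not cell types with sharp edges. Of the cells without Eomes or interneuron identity, 16 had exactly 4 radial glia markers and so fell just outside the radial glia-like class, and 2 of the 18 inside it had exactly 5.

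The radial glia-like class was checked against its own and other markers. Its cells had 5 to 8 of the 8 markers (median 7.5), and Hopx was detected in 17 of 18. Values are TPM, a measure of transcript abundance corrected for transcript length. Neurod6 encodes a transcription factor of excitatory neurons, and 11 of the 18 cells had it at 100 TPM or above (median 431 TPM over the 18 cells, against 1648 TPM in excitatory neuron-like cells). None of the 6 endothelial and none of the 6 meningeal markers was detected in any of the 18 cells. Of the mural markers 3 of 6 were detected, in 2 cells (summed level 0 to 26.2 TPM), and of the microglial markers 3 of 7, in 3 cells (0 to 20.003 TPM). Of the 6 oligodendrocyte precursor markers Olig2 alone was detected, in 5 cells (0 to 507 TPM), the highest level among these lists. Whether the Neurod6 signal in this class is RNA of another cell was not tested, and values without those cells are given where a call of the 10 genes changed. The Eomes-positive class also had neuronal transcripts, with Neurod6 in 33 of 33 cells (31 at 100 TPM or above, median 1489 TPM) and Neurod1 in 17. Mki67 or Top2a, markers of dividing cells, were detected in 14 of the 33.

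The number of genes detected per cell ran from 2146 to 6727 (median 4035), with a class median of 4691.5 in radial glia-like, 4279 in Eomes-positive, 4029.5 in newborn neuron-like, 4033 in excitatory neuron-like and 3555 in interneuron-like cells. Read numbers are not part of the tables used here, so the depth per cell is unknown. The lowest value of a cell, shared by all features without signal, lay between 1.33 and 2.998 TPM. The 33 cells of pool 2 whose names end in B stood apart by globin transcripts (median 1202 TPM, and 9.70 TPM in the other 188 cells). They include 2 of the 18 radial glia-like cells. Names end in A in 13 of 18 radial glia-like, 20 of 33 Eomes-positive and 28 of 60 newborn neuron-like cells. The same holds for 50 of 79 excitatory neuron-like and 11 of 28 interneuron-like cells. The labels do not say what the letter marks. The labels give the sex as female, but a Y-linked gene was detected in 99 cells and both Xist and a Y-linked gene in 19, none of them radial glia-like.

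On the mouse genome (GRCm38, the assembly also called mm10), Tnc spans chr4:63959785-64047015 (minus strand), Ptprz1 chr6:22875502-23052916 (plus), Ptn chr6:36714929-36810220 (minus), Mdk chr2:91929805-91932297 (minus) and Bcan chr3:87987531-88000230 (minus). Ncan spans chr8:70093085-70120873 (minus), Vcan chr13:89655312-89742509 (minus), Sparc chr11:55394500-55423183 (minus), Sdc2 chr15:32920723-33034935 (plus) and Sdc4 chr2:164424247-164443887 (minus). All 10 are protein-coding genes in GENCODE M21. Annotated genes on the opposite strand overlap Tnc and Vcan, and whether the counting used strand is not given in the sources used here, so reads from those partners cannot be told apart from Tnc and Vcan. Values are per gene, so the isoforms of Ptprz1, some of which are secreted, are not separated.

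The 250 bases before the annotated start are shown for the tenascin, its phosphatase receptor and the lectican that were all called higher in radial glia-like cells than in the excitatory neuron-like class. They are RefSeq windows of GRCm38.p6, read 5′ to 3′ on the strand of the gene, and capitals mark TATAAA (the TATA box) and GGGCGG (the GC box) on either strand. The windows lie at chr4:64047016-64047265 (minus) for Tnc, chr6:22875252-22875501 (plus) for Ptprz1 and chr3:88000357-88000606 (minus) for Bcan.
Tnc: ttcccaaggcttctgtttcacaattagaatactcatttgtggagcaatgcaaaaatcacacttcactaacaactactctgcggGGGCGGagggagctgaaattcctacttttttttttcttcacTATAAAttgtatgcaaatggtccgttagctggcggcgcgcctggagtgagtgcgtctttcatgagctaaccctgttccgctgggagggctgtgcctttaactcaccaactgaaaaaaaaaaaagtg
Ptprz1: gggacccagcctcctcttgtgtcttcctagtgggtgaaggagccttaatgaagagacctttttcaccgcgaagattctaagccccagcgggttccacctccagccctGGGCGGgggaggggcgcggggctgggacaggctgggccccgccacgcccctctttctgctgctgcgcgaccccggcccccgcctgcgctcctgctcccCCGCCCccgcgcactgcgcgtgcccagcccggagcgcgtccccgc
Bcan: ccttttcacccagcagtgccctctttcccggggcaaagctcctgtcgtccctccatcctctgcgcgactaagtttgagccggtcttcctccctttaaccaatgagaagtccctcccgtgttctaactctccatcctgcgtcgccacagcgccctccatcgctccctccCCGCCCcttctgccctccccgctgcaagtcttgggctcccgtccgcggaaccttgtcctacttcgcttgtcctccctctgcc
The Tnc window holds TATAAA 126 bases and GGGCGG 167 bases before the start. The Ptprz1 window holds GGGCGG at 143 bases and, on the opposite strand, at 45 bases, and the Bcan window holds it at 82 bases on the opposite strand. Of 32851 RefSeq windows of this length, 12.4% hold TATAAA and 32.7% hold GGGCGG on either strand. The letters GTGGGAA (an Rbpj motif), ACAAAG and ACAATG (Sox motifs) are in none of the 3 windows shown, and are in 5.42%, 16.5% and 10.7% of all windows. RefSeq has another start of Tnc, whose window at chr4:64046937-64047186 (minus) overlaps the one shown and holds GTGGGAA 82 bases before that start. The windows differ in composition, with G or C at 44.8% of the Tnc bases, 71.6% for Ptprz1 and 62% for Bcan, against a median of 52.4%. Windows were found for 8 of the 10 genes, the motifs were listed after the Tnc sequence had been seen, and a match describes letters, not a used site.

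Most of the 10 genes had their highest level in radial glia-like cells. Differences were tested with limma on the mean log2(TPM + 1) of each class in each pool, and a call needed a log2 difference of 1 or more together with an adjusted p under 0.05. Of the 9 genes that could be tested, 6 were called higher in radial glia-like cells than in the excitatory neuron-like class (Tnc, Sparc, Bcan, Mdk, Ptprz1 and Sdc2) and none lower, where 3.94% of the 10723 genes tested were called higher and 0.886% lower. Of the 518 genes called in either direction (4.83%), 81.7% were higher in radial glia-like cells, against 66.6% of 560 after quantile normalization and 58.8% of 243 with log2 of the mean TPM. The median difference of the 9 genes was 2.17, against 0.03 over all genes. Against Eomes-positive cells 3 of 9 were called higher (Tnc, Bcan and Sparc) and none lower, where 1.02% of all genes were higher and 0.326% lower (1.34% in all). The median was 2.197 against -0.07 over all genes. Against interneuron-like cells 7 of 9 were called higher and none lower, where 5.20% of all genes were higher and 1.76% lower (6.97% in all). The median was 2.75 against 0.08. The 3 comparisons share the radial glia-like cells and so are not independent. The 10 genes were chosen with earlier results of these data known, so these counts and medians describe them and do not test the set. Sdc4 was detected in too few cells to be tested, and the others passed the detection minimum of 10 cells also when radial glia-like cells are left out.

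**Figure D1:**
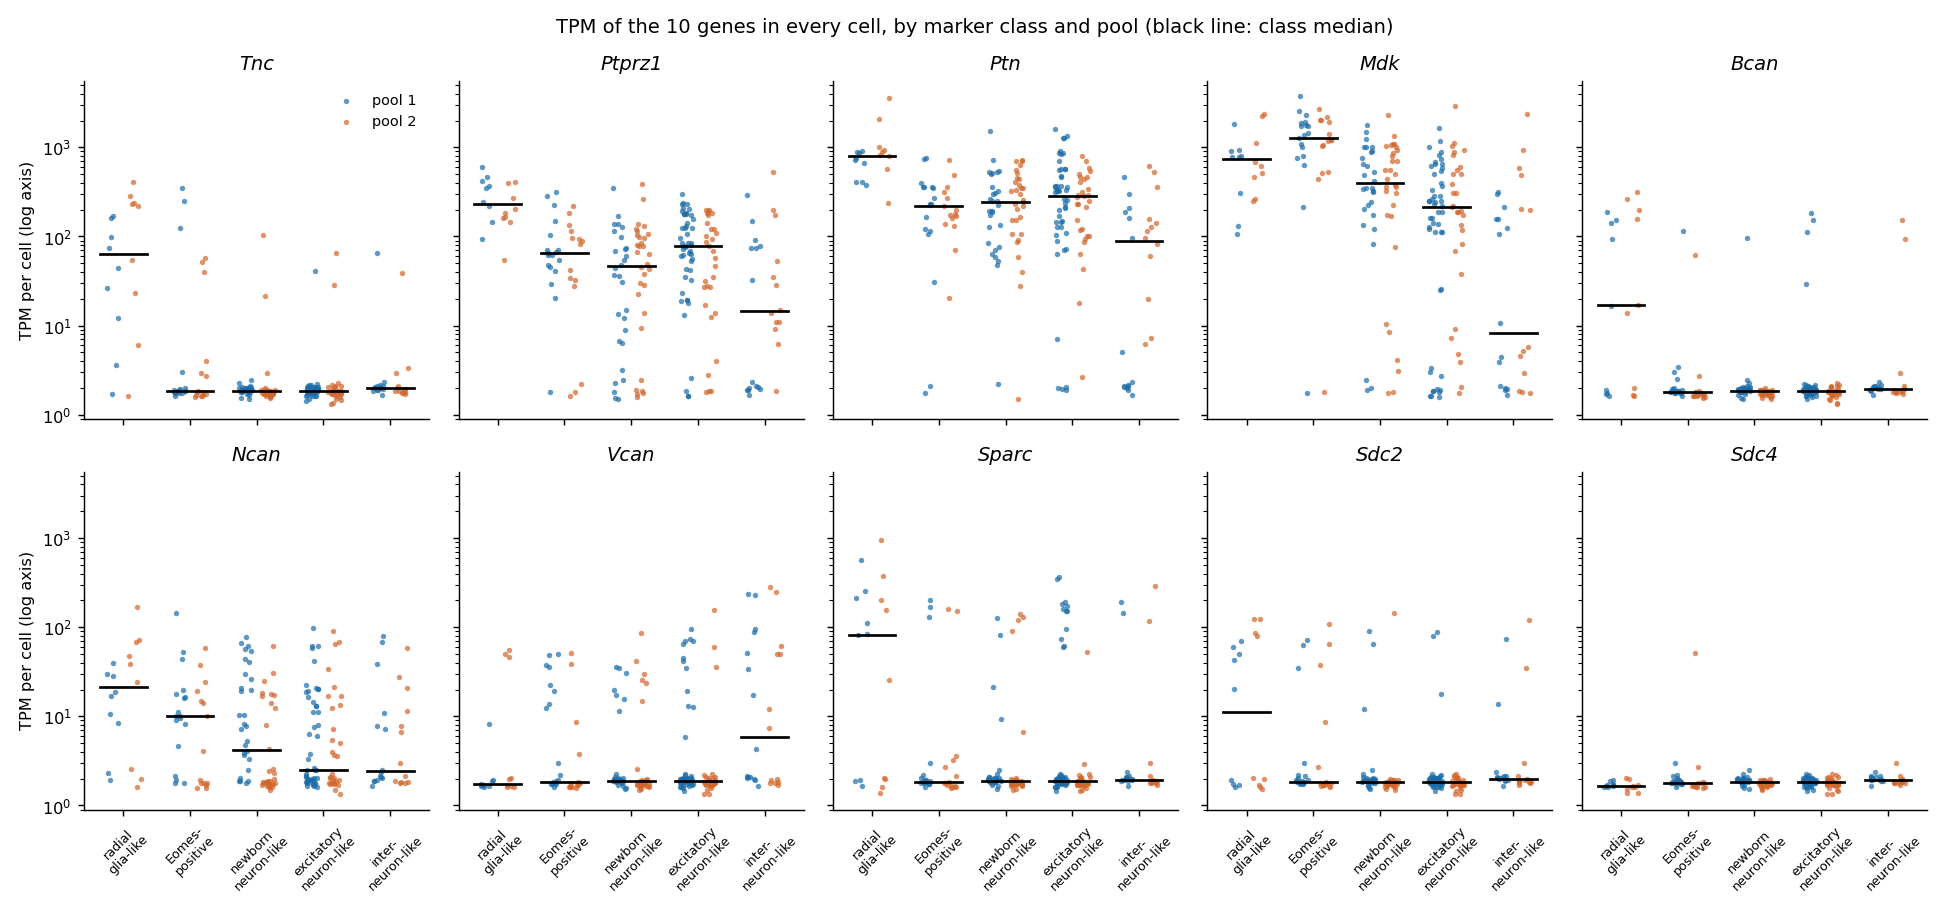
Level of each of the 10 genes by class: each point is a cell, the vertical axis is TPM on a log scale, colors mark pool 1 and pool 2, and the black line is the median of the class. Tnc, Bcan, Sparc and Sdc2 points in the neuron classes lie mostly at the lowest value of their cell, while Ptprz1, Ptn and Mdk points lie above it in all 18 radial glia-like cells.

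**Figure D2:**
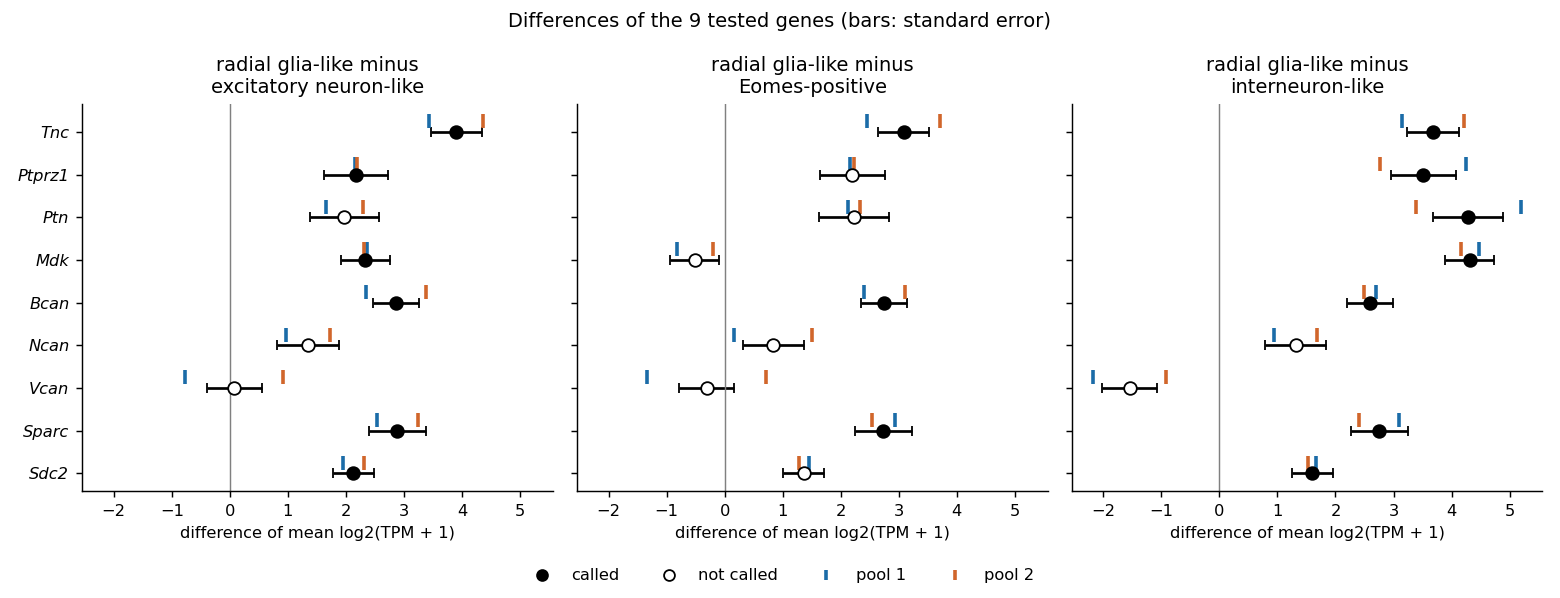
Difference of mean log2(TPM + 1) of the 9 tested genes (horizontal axis) between radial glia-like cells and 3 other classes, where circles are the limma estimates, filled if called, bars are their SE, and ticks are the differences in pool 1 and pool 2. Tnc, Bcan and Sparc are filled in all 3 panels, Mdk lies below 0 against Eomes-positive cells, and the Vcan ticks lie on both sides of 0 against excitatory neuron-like and Eomes-positive cells.

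Tnc encodes tenascin-C, a large matrix glycoprotein that surrounds stem cells of the brain. It was detected in 16 of 18 radial glia-like cells, at 1.61 to 405 TPM with a median of 63.8. The pool means were 66.1 and 163 TPM (114.4 ± 68.4 SD, n = 2 pools). In the other classes most cells had no signal: Tnc was detected in 8 of 33 Eomes-positive cells (highest 348 TPM), 3 of 60 newborn neuron-like cells (highest 104.2 TPM), 3 of 79 excitatory neuron-like cells (highest 65.1 TPM) and 3 of 28 interneuron-like cells (highest 65.9 TPM). Single cells thus overlapped between classes, but the radial glia-like mean of each pool was above that of every other class. The log2 difference was 3.90 ± 0.44 (SE) against excitatory neuron-like cells (limma adjusted p = 0.000285), the 22nd largest of the 10723 genes tested. It was 3.08 ± 0.44 against Eomes-positive cells (adjusted p = 0.00261) and 3.68 ± 0.44 against interneuron-like cells (adjusted p = 0.00021). Among the other classes the mean log2 level was 2.49 in Eomes-positive, 1.89 in interneuron-like, 1.67 in excitatory neuron-like and 1.65 in newborn neuron-like cells, and none of the tested differences between these was called. The calls against excitatory neuron-like and interneuron-like cells were kept under all 17 and all 16 other settings. That against Eomes-positive cells was lost under 3 of 17: a radial glia gate at 4 of 8 markers (1.53, adjusted p = 0.0855), cells with the name suffix A only (2.78, adjusted p = 0.0896) and log2 of the mean TPM (2.18, adjusted p = 0.319).

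Ptn encodes pleiotrophin, a heparin-binding growth factor. It was detected in 18 of 18 radial glia-like cells, at 240 to 3589 TPM with a median of 802, and its pool means were 670 and 1213 TPM (941 ± 384 SD). By mean level it ranked 137th of the 23244 features there. It was also detected in 32 of 33 Eomes-positive, 59 of 60 newborn neuron-like and 76 of 79 excitatory neuron-like cells, with medians of 218, 247 and 285 TPM. These 3 classes had mean log2 levels of 7.36, 7.60 and 7.62, which differed from each other by less than their SE. Ptn was thus a transcript of nearly every cell of the excitatory lineage, with a higher mean in radial glia-like cells in both pools. The difference of 1.97 ± 0.60 from excitatory neuron-like cells (adjusted p = 0.0778) and that of 2.23 ± 0.60 from Eomes-positive cells (adjusted p = 0.0823) did not pass the threshold. The first was called with log2(TPM + 10) (1.80, adjusted p = 0.0283) and with pool and name suffix as units (2.03, adjusted p = 0.0313), 2 of 17 other settings. The second was called with the same settings (2.05, adjusted p = 0.0338, and 2.14, adjusted p = 0.0384) and with the number of detected genes as a covariate (2.22, adjusted p = 0.0483).

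Mdk encodes midkine, the other member of the pleiotrophin family. Its order over the classes was unlike that of Ptn, with the highest level in Eomes-positive cells. There it was detected in 31 of 33 cells, at 1.74 to 3730 TPM with a median of 1280, and the pool means were 1462 and 1295 TPM (1379 ± 117.9 SD), the 69th highest mean of all features. Radial glia-like cells had Mdk in 18 of 18 cells, at 107.02 to 2344 TPM with a median of 735 and pool means of 728 and 946 TPM. Newborn neuron-like cells had a median of 398 TPM, excitatory neuron-like cells 217 TPM and interneuron-like cells 8.23 TPM. The mean log2 level thus descended in the order Eomes-positive (9.76), radial glia-like (9.25), newborn neuron-like (7.93), excitatory neuron-like (6.91) and interneuron-like (4.93), and both pools gave this same order. The first 2 neighbours did not differ beyond their spread (radial glia-like minus Eomes-positive -0.51 ± 0.42, limma adjusted p = 0.631). Within the Eomes-positive class the median Mdk was 1305 TPM in 14 cells with Mki67 or Top2a and 1280 TPM in 19 with neither.

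Against excitatory neuron-like cells, Mdk was higher by 2.85 ± 0.42 in Eomes-positive cells (limma adjusted p = 0.0236; 3.18 in pool 1 and 2.52 in pool 2). It was 1 of 3 genes called in that comparison, 0.0280% of the genes tested, where 963 genes had an unadjusted p below 0.05. The other called genes, named after their values were seen, were Rnd3, a small GTPase (4.17), and Neurog2, a proneural transcription factor (2.74). Without any of the 4 profiles in turn the Mdk difference was 2.62 to 3.07 and the call was lost each time (adjusted p 0.139 to 0.741). It was also lost under 7 of 17 other settings, among them the fit without Neurod6-rich radial glia-like cells (adjusted p = 0.196). Mdk was also higher in radial glia-like cells than in the excitatory neuron-like class, by 2.33 ± 0.42 (adjusted p = 0.00541), a call lost without pool 1 (2.11, adjusted p = 0.0994) or pool 2 (2.56, adjusted p = 0.0520) of excitatory neuron-like cells and under 5 of 17 other settings. In newborn neuron-like cells it was 1.01 ± 0.42 above excitatory neuron-like cells, which was not called (p = 0.0296, adjusted p = 0.9999). In that comparison 0 of the 10723 genes were called by limma, and 62 had an unadjusted p below 0.05.

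The balance of the 2 ligands shifted between the classes. The log2 level of Mdk minus that of Ptn in the same cell averaged 2.40 in Eomes-positive cells (2.68 in pool 1 and 2.12 in pool 2), and Mdk was above Ptn in 30 of 33 cells. In newborn neuron-like cells the average was 0.32 (39 of 60 cells with more Mdk), and in radial glia-like cells -0.34 (10 of 18). In excitatory neuron-like cells it was -0.70 (-0.97 and -0.44 by pool), with more Mdk than Ptn in 37 of 79 cells. Interneuron-like cells averaged -0.37, with opposite signs in the pools (0.46 and -1.20). These balances are described without a test.

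**Figure D3:**
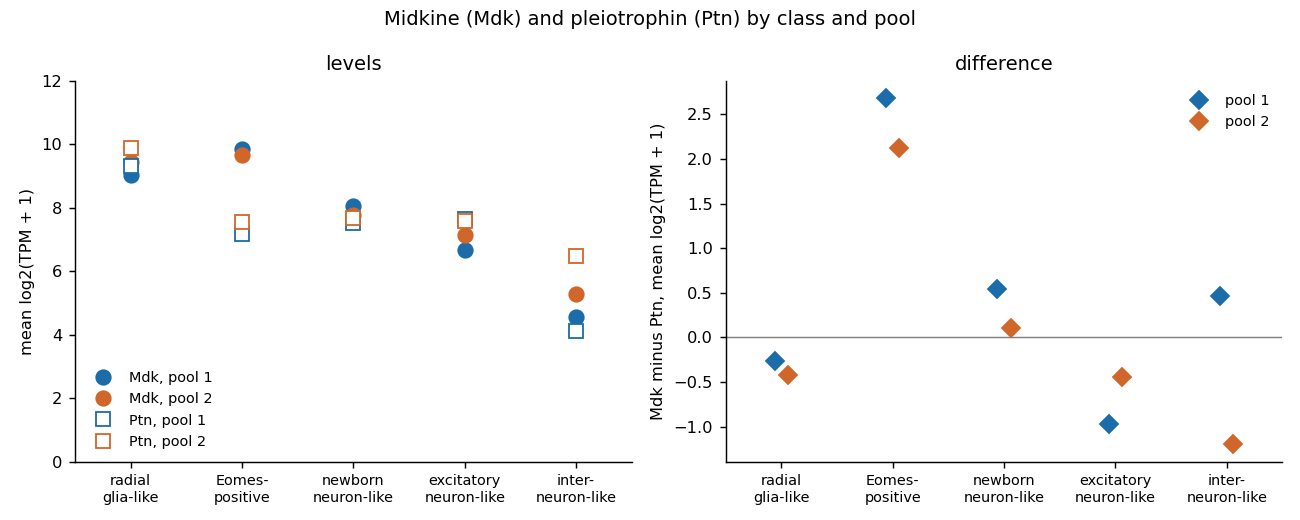
Left, mean log2(TPM + 1) of Mdk (filled circles) and Ptn (open squares) by class and pool, and right, the mean of Mdk minus that of Ptn on the same scale, with a line at 0. Both pools lie above the line in Eomes-positive cells (2.68 and 2.12) and below it in the radial glia-like and excitatory neuron-like classes, and the interneuron-like pools lie on opposite sides (0.46 and -1.20).

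Ptprz1, the receptor shared by tenascin-C, pleiotrophin and midkine, was detected in 18 of 18 radial glia-like cells, at 54.5 to 605 TPM with a median of 232. The pool means were 324 and 221 TPM (273 ± 72.5 SD). It was not limited to these cells: 73 of 79 excitatory neuron-like cells (median 78.1 TPM), 30 of 33 Eomes-positive cells (64.8 TPM), 50 of 60 newborn neuron-like cells (46.8 TPM) and 19 of 28 interneuron-like cells (14.4 TPM) had it too. The classes overlapped, and the highest interneuron-like cell reached 524 TPM. The log2 difference was 2.17 ± 0.56 from excitatory neuron-like cells (adjusted p = 0.0352; 2.16 and 2.19 by pool), 3.51 ± 0.56 from interneuron-like cells (adjusted p = 0.0016) and 2.197 ± 0.56 from Eomes-positive cells, which was not called (adjusted p = 0.0668). The last was called under 5 of 17 other settings (1.83 to 2.72, adjusted p 0.0314 to 0.0397), of which the fit without Neurod6-rich radial glia-like cells gave 2.72, and without radial glia-like cells of pool 2 (adjusted p = 0.0444). The call against interneuron-like cells was lost with the number of detected genes as a covariate (2.93, adjusted p = 0.0771). That against excitatory neuron-like cells was lost under 8 of 17 other settings. It was also lost without pool 1 of radial glia-like cells (1.90, adjusted p = 0.0903) and without pool 1 (2.47, adjusted p = 0.153) or pool 2 (1.88, adjusted p = 0.335) of excitatory neuron-like cells. Eomes-positive and excitatory neuron-like cells had nearly the same mean log2 level (5.67 and 5.70).

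Ligand and receptor were often detected in the same cell. Tnc and Ptprz1 were found together in 16 of the 18 cells of the radial glia-like class (88.9%, exact binomial 95% interval 65.3 to 98.6%, counting error only). They were together in 7 of 33 Eomes-positive, 3 of 60 newborn neuron-like, 3 of 79 excitatory neuron-like and 2 of 28 interneuron-like cells. The spread of this pair follows Tnc, the less widely detected of the 2 genes. Ptn and Ptprz1 were found together in 18 of 18 radial glia-like, 29 of 33 Eomes-positive, 49 of 60 newborn neuron-like, 70 of 79 excitatory neuron-like and 17 of 28 interneuron-like cells. For Mdk and Ptprz1 these counts were 18, 29, 46, 65 and 14. Whether a pair was found together more often than the detection of each gene alone would give was not tested. Of the 10 genes, a radial glia-like cell had a median of 7 (4 to 9), an Eomes-positive cell 5 (2 to 8), newborn and excitatory neuron-like cells 4 each, and an interneuron-like cell 3.5 (0 to 7). Radial glia-like cells also had the most genes detected in all, and the part of this depth in the counts was not tested.

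**Figure D4:**
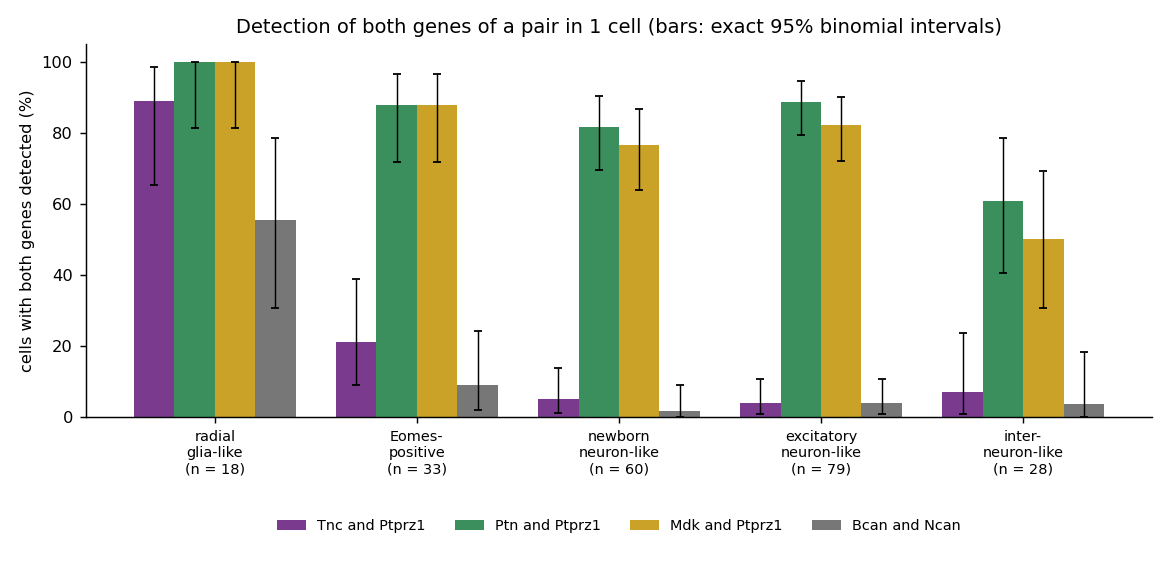
Percent of cells in each class with both genes of a pair detected, with exact 95% intervals (counting error only) as bars. Tnc with Ptprz1 falls from 88.9% in radial glia-like cells to 21.2% in Eomes-positive cells and less in neurons, while Ptn with Ptprz1 stays above 60% in all 5 classes.

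Sdc2 and Sdc4 encode syndecans, membrane proteins with heparan sulfate chains that bind pleiotrophin, midkine and other growth factors. Sdc2 was detected in 9 of 18 radial glia-like cells, at 1.52 to 125 TPM with a median of 11.3 and pool means of 27.9 and 47.1 TPM. It was found in 7 of 33 Eomes-positive, 4 of 60 newborn neuron-like, 3 of 79 excitatory neuron-like and 4 of 28 interneuron-like cells. The log2 difference was 2.13 ± 0.35 from excitatory neuron-like cells (limma adjusted p = 0.0030), 1.60 ± 0.35 from interneuron-like cells (adjusted p = 0.0129) and 1.36 ± 0.35 from Eomes-positive cells, which was not called (adjusted p = 0.0707). The call against excitatory neuron-like cells was lost without their pool 2 (1.98, adjusted p = 0.107) and under 2 of 17 other settings. That against interneuron-like cells was lost under 7 of 16 other settings and without their pool 1 (1.502, adjusted p = 0.0841), and the difference from Eomes-positive cells was called without radial glia-like cells of pool 1 (1.40, adjusted p = 0.0444) and under 3 of 17 other settings. Sdc4 was detected in 1 of 221 cells, an Eomes-positive cell of pool 2 with 51.2 TPM. Its count of 0 of 18 radial glia-like cells allows a share of up to 16.7%, taken as 3 of 18 cells (the exact 95% upper bound is 18.53%), for counting error only.

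Bcan, Ncan and Vcan encode brevican, neurocan and versican, lecticans that carry chondroitin sulfate and bind hyaluronan. Bcan was detected in 24 of all 221 cells, 11 of them radial glia-like. In that class it ran from 1.61 to 316 TPM (median 16.9), with pool means of 66.8 and 107.99 TPM (87.4 ± 29.1 SD). Elsewhere it was found in 4 of 33 Eomes-positive, 1 of 60 newborn neuron-like, 4 of 79 excitatory neuron-like and 2 of 28 interneuron-like cells. The 4 excitatory neuron-like cells were all in pool 1 and had names ending in A. Both cells with markers of other types had Bcan too (44.6 and 60.7 TPM). The log2 difference was 2.87 ± 0.40 from excitatory neuron-like cells (limma adjusted p = 0.000847), 2.75 ± 0.40 from Eomes-positive cells (adjusted p = 0.00261) and 2.59 ± 0.40 from interneuron-like cells (adjusted p = 0.0012). The first was lost only when log2 was taken of the mean TPM, out of 17 other settings. The second was lost under 3 of 17 and without Eomes-positive cells of pool 1 (2.81, adjusted p = 0.05005). The third was lost under 2 of 16, with log2 of the mean TPM (3.41, adjusted p = 0.0869) and with the radial glia gate at 4 of 8 markers (1.27, adjusted p = 0.0554).

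Ncan was spread more evenly. It was detected in 15 of 18 radial glia-like cells (1.61 to 167 TPM, median 21.5; pool means 17.5 and 47.1), 24 of 33 Eomes-positive cells (median 9.999 TPM), 39 of 60 newborn neuron-like cells (4.20 TPM), 44 of 79 excitatory neuron-like cells (2.52 TPM) and 14 of 28 interneuron-like cells (2.42 TPM). None of its differences in the 6 comparisons was called. That of radial glia-like cells from the excitatory neuron-like class was 1.34 ± 0.53 (adjusted p = 0.175), and was called at 2.33 (adjusted p = 0.0317) without the 11 cells of high Neurod6. That of radial glia-like from interneuron-like cells was 1.32 and likewise called without those cells (2.30, adjusted p = 0.0299).

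Vcan was the exception among the matrix genes, with its highest mean in interneuron-like cells. It was detected in 15 of 28 of these, at 1.66 to 281 TPM with a median of 5.92, and the pool means were 51.2 and 55.7 TPM (53.4 ± 3.14 SD). In radial glia-like cells it was found in 4 of 18, 1 in pool 1 and 3 in pool 2, with a highest value of 55.5 TPM. Counts were 12 of 33 Eomes-positive, 14 of 60 newborn neuron-like and 15 of 79 excitatory neuron-like cells. The difference of interneuron-like from excitatory neuron-like cells was 1.63 ± 0.48 (adjusted p = 0.216; 1.41 and 1.84 by pool) and that of radial glia-like from interneuron-like cells -1.55 ± 0.48 (adjusted p = 0.0636). Neither was called. The second was called after quantile normalization (-1.75, adjusted p = 0.0333) and without radial glia-like cells of pool 2 (-2.16, adjusted p = 0.00941). The radial glia-like class differed from excitatory neuron-like cells by 0.08 ± 0.48, with opposite signs in the pools (-0.77 and 0.92).

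Sparc encodes a secreted protein that binds calcium and collagen and regulates matrix assembly. It was detected in 11 of 18 radial glia-like cells, at 1.40 to 952 TPM with a median of 82.8, and the pool means were 147 and 191 TPM (169 ± 30.95 SD). Counts in the other classes were 8 of 33 Eomes-positive, 11 of 60 newborn neuron-like, 14 of 79 excitatory neuron-like and 4 of 28 interneuron-like cells. Its highest value, 1027 TPM, was in a cell with markers of other types. The log2 difference was 2.89 ± 0.49 from excitatory neuron-like cells (limma adjusted p = 0.0037), 2.73 ± 0.49 from Eomes-positive cells (adjusted p = 0.0115) and 2.75 ± 0.49 from interneuron-like cells (adjusted p = 0.00365). In pool 1 most excitatory neuron-like cells with Sparc had names ending in A, as did 28 of all 49 excitatory neuron-like cells there. By pool, the excitatory neuron-like cells had Sparc in 12 of 49 cells of pool 1 (mean 42.5 TPM) and 2 of 30 of pool 2 (3.55 TPM). Without their pool 2 the first difference was 2.26 and not called (adjusted p = 0.138), and the second was not called without pool 1 (2.82, adjusted p = 0.0992) or pool 2 (2.65, adjusted p = 0.0968) of Eomes-positive cells. Under other settings these calls were lost in 4 of 17 and 5 of 17, and that against interneuron-like cells in 4 of 16. The last was lost with pool and name suffix as units (2.03, adjusted p = 0.150), the gate at 4 markers (1.72, adjusted p = 0.136), the number of detected genes as a covariate (2.09, adjusted p = 0.140) and log2 of the mean TPM (2.54, adjusted p = 0.129). Sparc is also a gene of endothelial, mural and meningeal cells. In the 18 radial glia-like cells endothelial and meningeal markers were at 0, and 3 of 6 mural markers were detected, in 2 cells with a summed level of at most 26.2 TPM, whose part in the Sparc level was not tested. Sparc signal did not follow radial glia markers in a simple way: among cells without Eomes and interneuron identity it was detected in 12 of 32 with 0 radial glia markers, 4 of 41 with 1, 1 of 34 with 2 and 3 of 17 with 3. With more markers the counts were 5 of 16 with 4, 1 of 2 with 5, 2 of 4 with 6 and 0 of 3 with 7. They were highest with all 8 markers, at 8 of 9 cells (median 214 TPM).

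Within the radial glia-like class the matrix genes varied more than the receptor and the ligands. Every one of the 18 cells had Ptprz1, Ptn and Mdk, and the lowest Ptn value was 240 TPM. By contrast, Tnc ran from no signal in 2 cells to 405 TPM, and Bcan, Sparc and Sdc2 were detected in 11, 11 and 9 cells. The 7 cells with Neurod6 under 100 TPM had Tnc in 7 of 7 (median 218 TPM), Bcan in 6 of 7 (156 TPM), Sparc in 6 of 7 (202 TPM) and Ncan in 7 of 7 (38.6 TPM). The 11 cells at or above 100 TPM of Neurod6 had Tnc in 9 of 11 (23.1 TPM), Bcan in 5 of 11 (1.99 TPM), Sparc in 5 of 11 (2.05 TPM) and Ncan in 8 of 11 (10.6 TPM). The split is a description, and its 7 cells are 2 of pool 1 and 5 of pool 2. Without the 11 cells the differences from excitatory neuron-like cells were 4.93 for Tnc, 3.96 for Bcan, 5.03 for Sparc and 3.02 for Sdc2, each larger than with all 18 cells.

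**Figure D5:**
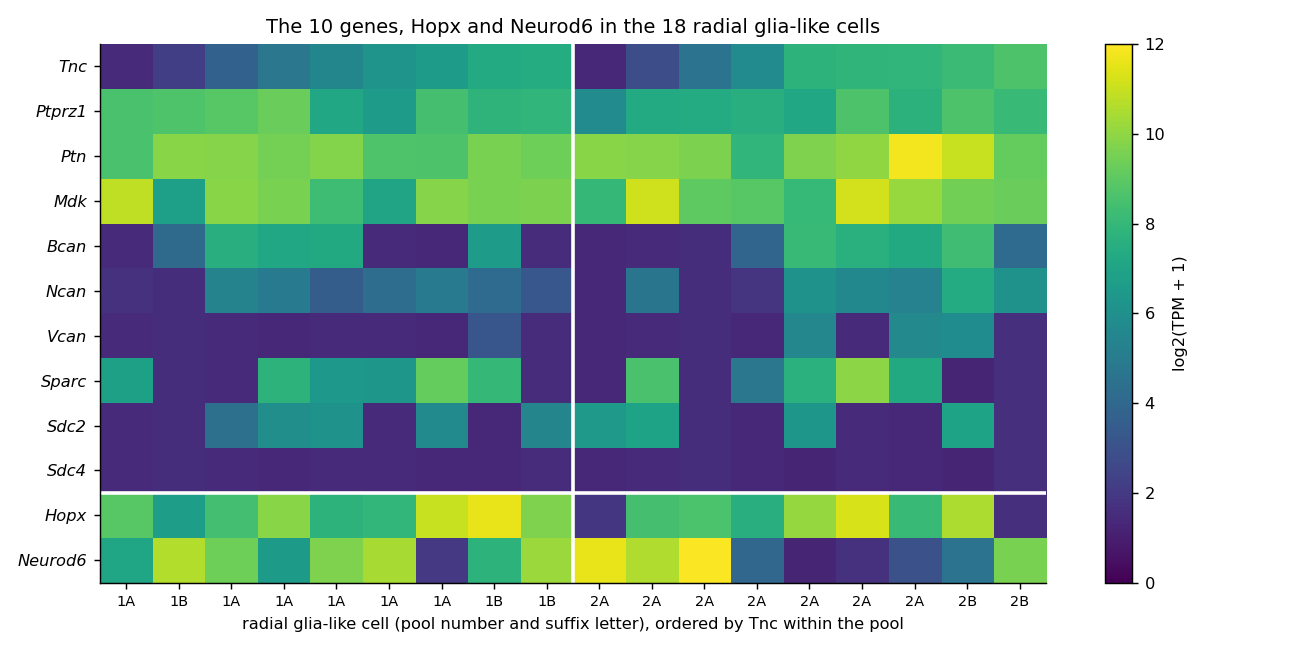
Level of the 10 genes in each of the 18 radial glia-like cells as color (log2(TPM + 1)), cells ordered by pool and by Tnc, with Hopx and Neurod6 below the line for comparison. Ptprz1, Ptn and Mdk fill every column, Sdc4 none, and Bcan, Sparc and Sdc2 only some.

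Tnc was found in every radial glia-like cell with transcripts of the cell cycle and in most of the others. It was detected in 11 of 11 radial glia-like cells with Mki67 or Top2a, markers of dividing cells (median 98.1 TPM), and in 5 of 7 cells with neither (12.3 TPM). Eomes-positive cells with Mki67 or Top2a had it in 5 of 14 (median 1.87 TPM), and those with neither in 3 of 19. Bcan went the other way, in 6 of 11 (median 13.95 TPM) and 5 of 7 (153 TPM). The median number of genes detected was 4792 in the 11 radial glia-like cells and 4333 in the 7 cells. A cell of the 11 counted only through Mki67 at 1.78 TPM, where its lowest value was 1.75 TPM. These values are a description over few cells, and were not tested. Across the 18 cells the log2 levels of Tnc and Ncan had a Pearson r of 0.69, Ptn and Vcan 0.65 and Bcan and Ncan 0.61, while Ptn and Mdk had 0.14 and Tnc and Ptprz1 0.12. The cells share 2 pools and differ in depth. The r with the number of detected genes was -0.18 for Tnc and 0.41 for Sparc.

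Cells next to the radial glia-like class were intermediate for some genes. Of the 33 Eomes-positive cells, 15 had 5 or more radial glia markers, and among these Tnc was detected in 6, Sdc2 in 6 and Bcan in 4. Among the 18 with fewer markers these counts were 2, 1 and 0. Mdk did not show this split, with 14 of 15 and 17 of 18 cells. Of the 16 cells with exactly 4 radial glia markers, just outside the class, Ptprz1 was detected in 16, Sparc in 5, Tnc in 3, Sdc2 in 2 and Bcan in 1. The 2 cells with exactly 5 markers both had Tnc. With the radial glia gate at 4 markers the differences from excitatory neuron-like cells fell short of the threshold for Ptprz1 (1.24, adjusted p = 0.468), Mdk (1.28, adjusted p = 0.257), Sparc (1.96, adjusted p = 0.190) and Sdc2 (1.53, adjusted p = 0.0795).

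Interneuron-like cells had the lowest levels of both growth factors. Mdk was detected in 19 of 28 of these cells, at 1.66 to 2368 TPM with a median of 8.23 and pool means of 93.4 and 369 TPM. It was lower than in excitatory neuron-like cells by a log2 difference of -1.98 ± 0.42 (limma adjusted p = 0.0482; -2.11 and -1.85 by pool), the only one of the 9 genes called in that comparison, where 0.224% of all genes were called lower. Without the pool 2 cells whose names end in B it was -0.998 (adjusted p = 0.822), and the call was kept under 7 of 16 other settings. Among the losses was the fit without Neurod6-rich radial glia-like cells (adjusted p = 0.134), which left the difference itself at -1.98. It was lost without pool 1 (-2.21, adjusted p = 0.229) or pool 2 (-1.75, adjusted p = 0.625) of excitatory neuron-like cells and without pool 1 of interneuron-like cells (-1.62, adjusted p = 0.184). Ptn was detected in 21 of 28 cells, 8 of 15 in pool 1 and 13 of 13 in pool 2, with a difference of -2.31 ± 0.60 that was not called (adjusted p = 0.135; -3.54 and -1.09 by pool). It was called without interneuron-like cells of pool 2 (-3.50, adjusted p = 0.00241) and with profiles weighted by cells (-2.41, adjusted p = 0.0101). Against radial glia-like cells both ligands were called, Mdk by 4.31 ± 0.42 (adjusted p = 9.25e-05) and Ptn by 4.29 ± 0.60 (adjusted p = 0.000671), radial glia-like minus interneuron-like. Interneuron-like cells had the fewest genes detected. With the number of detected genes as a covariate these differences were 4.51 for Mdk (adjusted p = 0.0042) and 4.25 for Ptn (adjusted p = 0.0277), and those from excitatory neuron-like cells -2.06 for Mdk (adjusted p = 0.0498) and -2.30 for Ptn (adjusted p = 0.152).

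Other genes of these pathways, from 7 lists, gave fewer calls. Of the tenascin family and its receptors 5 of 11 genes could be tested, and Egfr, the epidermal growth factor receptor, was higher in radial glia-like cells than in excitatory neuron-like (1.59), Eomes-positive (1.66) and interneuron-like cells (1.67). Egfr was detected in 10 cells in all, 7 of them radial glia-like, so it passed the detection minimum only through the class where it is high. Of the pleiotrophin and midkine receptors 6 of 9 were tested, and Notch2, a Notch receptor, was higher than in excitatory neuron-like (1.27) and interneuron-like cells (1.19). Its level was low, with a mean of 14.4 TPM in radial glia-like cells. Of the other lecticans, link proteins and chondroitin sulfate proteoglycans 1 of 10 was tested: Cspg5 (neuroglycan C) was higher by 1.84, 2.44 and 2.38 against excitatory neuron-like, Eomes-positive and interneuron-like cells, with detection in 11 of 18 radial glia-like cells. Of the 11 tested genes of chondroitin sulfate synthesis (of 20 listed) 0 were called in the 6 comparisons, where at most 6.97% of all genes were called in a comparison, so the count does not set the list apart.

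Of 15 tested genes for heparan sulfate proteoglycans and their synthesis (of 18 listed), Gpc6, a glypican, was higher in radial glia-like cells than in excitatory neuron-like (1.10) and interneuron-like cells (1.005). Of 4 tested relatives of Sparc (of 7), Fstl1 was higher by 2.83 and 2.62 and Sparcl1 by 2.39 and 2.71 in the same comparisons. Sparcl1, a secreted matrix protein of astroglia, had a mean of 233 TPM in radial glia-like cells. Spock1, a proteoglycan of the same family, was lower in radial glia-like than in interneuron-like cells (-1.65) and was detected in 0 of 18 against 11 of 28. Of 5 tested proteases and hyaluronan genes (of 12), Mmp14, a membrane-bound metalloproteinase, was higher than in excitatory neuron-like (1.99) and interneuron-like cells (1.82). In the comparisons of Eomes-positive, newborn neuron-like and interneuron-like cells with the excitatory neuron-like class 0 genes of the 7 lists were called, where 0.0280%, 0% and 0.625% of all genes were, so these counts do not set the lists apart either.

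Over all 221 cells, the genes whose log2 level followed Tnc most closely were S1pr1, a sphingosine 1-phosphate receptor (Pearson r = 0.63), Mfge8, which also defines the radial glia-like class (0.61), and Vcam1, an adhesion molecule (0.58). For Bcan they were Ednrb, the endothelin B receptor (0.61), Scrg1 (0.55) and S1pr1 (0.54), and for Sdc2 it was Pon2 (0.53). For the other 6 genes tested no gene reached an r of 0.5, the highest being 0.46 for Sparc with S1pr1. The cells share 2 pools and differ in depth, and these values describe this set of cells.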

How the data were processed

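Single cells of 2 pools were captured on a Fluidigm C1 chip, cDNA was made with the SMARTer v4 kit and libraries with Nextera XT, per the labels' protocols. The values are TPM as deposited by the authors, summing to 1e+06 per cell. The tools named are TopHat2 2.0.14, Bowtie2 2.2.6 and Cufflinks 2.2.1 with mm10, per the submitters' processing notes. No value is 0, and a gene was taken as detected above the lowest value of its cell. The 2 tables used hold identical values, none of 92 spike-ins was detected, and the highest correlation between any 2 cells was 0.734, so no cell appears to be present in 2 copies. No doublet caller was run.

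Cells were put in classes by marker counts, and mean log2(TPM + 1) was taken per class and pool (pseudocount 1 TPM, at least 4 cells). This gave 10 profiles, fitted with limma 3.58.1 in R 4.3.3 (trend and robust, two-sided, Benjamini-Hochberg over 10723 genes detected in at least 10 cells, without markers and spike-ins). P-values set a difference against 1 spread per gene. That spread is taken between the 2 pools within all 5 classes together and is moderated by limma across genes. It is thus not the spread of the compared classes alone. Tables were handled with Python 3.11.15 and pandas 2.3.3, and intervals come from scipy 1.17.1.

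The fit was tested on simulated data for radial glia-like cells against the excitatory neuron-like class over 10723 genes. Apart from the shift, each gene had the same mean in all profiles, with independent normal noise of its real residual size. Of 100 genes shifted by 2 on the log2 scale 47 were called, of 100 shifted by 4 91, and of 10523 unshifted genes 8. Real profiles are means of 9 to 49 cells, with many values at the lowest value of the cell. The simulated counts are therefore not the error rate of the real calls. Classes of 1 pool come from the same animals, so pools pair them by design. Their deviations from the class means correlated by -0.00016 to 0.0770 over 10 pairs of classes, and the main model has no pool term.

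The 10 genes and the lists were chosen with earlier results of these data known. Named besides the 10 genes are pathway genes called in a comparison (at most 4 per list) and, per gene, the 3 genes with the highest r of at least 0.5. Other pseudocounts, filters, normalizations, weights, marker gates, cell sets and left-out profiles were tried. Genome coordinates are from GENCODE M21 and promoter windows from RefSeq.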

Additional observations from a re-analysis of the deposited data

Results flagged for a closer look

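In 1 of 18 groups checked, a single cell lay far from the others. Among the 9 radial glia-like cells of pool 1, Vcan was above the lowest value of the cell in 1, at 8.17 TPM, and the other 8 cells had no signal. The rule is set to flag about 1 group in 20 by chance. With 8 of 9 cells at their lowest value any single detection stands out, so that rate does not hold for this group.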

How the results depend on the processing

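Each class has 2 pools, depth per cell is unknown, and with 18 radial glia-like cells a gene detected in few of them is known only within wide intervals. Of 54 differences of the 10 genes 18 were called. Over 298 alternative values of these, 237 kept direction and call and 0 reversed. Of 150 alternative values of the levels, 143 stayed within 1 SD and 7 moved. The alternatives without pool 2 cells ending in B, without radial glia-like cells of high Neurod6 (at least 2 cells per pool) and with the number of detected genes as covariate were chosen after seeing the data. Not run were the Neurod6 alternative with at least 4 cells per pool, and interneuron-like comparisons with suffix A only.

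The share of the tested genes called for radial glia-like cells against the excitatory neuron-like class (4.83%) became 2.27% with log2 of the mean TPM, 0.513% with the radial glia gate at 4 markers, 1.73% with classes by highest marker, 1.296% with suffix A only and 10.97% without Neurod6-rich cells (55.8% of these higher). With a profile left out it was 0.634% (no excitatory neuron-like pool 2) to 7.93% (no radial glia-like pool 2). Against Eomes-positive cells the share of 1.34% (75.7% higher) became 0.0746% (37.5% higher), 0.140%, 0.560%, 0.0933% and 5.55% (46.9% higher) in the same order. It was 0.606% with profiles weighted by cells, 0.802% without pool 2 cells ending in B and 3.60% with the covariate (59.3% higher), and 0.205% (no Eomes-positive pool 1) to 4.46% (no radial glia-like pool 1) with a profile left out. Eomes-positive cells against the excitatory neuron-like class had 0.0280%, which became 0% with log2 of the mean TPM and without Neurod6-rich cells, 0.00933% with pool and suffix as units, 1.25% with weights, 0.438% at 4 markers, 0.233% by highest marker, 0.0560% without pool 2 cells ending in B, 0.0653% with the covariate and 0% to 0.0280% with a profile left out. Interneuron-like cells against the excitatory neuron-like class had 0.625%, which became 1.55% with weights, 1.08% at 4 markers, 0.289% without Neurod6-rich cells and 0.196% (no excitatory neuron-like pool 2) to 0.858% with a profile left out. Radial glia-like cells against interneuron-like cells had 6.97% (74.7% higher), which became 4.54% (51.5% higher) with log2 of the mean TPM, 3.28% with weights, 2.24% at 4 markers, 3.34% by highest marker, 11.95% without Neurod6-rich cells, 3.39% with the covariate (53.02% higher), 7.18% (55.2% higher) after quantile normalization, and 3.12% (no interneuron-like pool 1) to 11.16% (no radial glia-like pool 2) with a profile left out. A lone profile is assumed to vary like the others. Newborn neuron-like cells against the excitatory neuron-like class gave 0% throughout. The cause of these changes was not tested. With the pool as a replicate block the shares were 5.17%, 1.32%, 0.0280%, 0.671% and 7.16% in the order given here and 0% for newborn cells, and no call of the 10 genes changed.

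Reversals of a difference of the 10 genes were seen where it was not called. For radial glia-like cells against the excitatory neuron-like class, Vcan was -0.59 with log2 of the mean TPM, -0.17 with suffix A only and -0.0019 without pool 2 cells ending in B. Against Eomes-positive cells, Mdk was 0.0157 with suffix A only, Ncan -0.096 by highest marker and Vcan 0.112 without Neurod6-rich cells. For Eomes-positive cells against the excitatory neuron-like class, Ptprz1 was 0.226 with pool and suffix as units, 0.0485 at 4 markers, 0.0674 by highest marker, 0.0088 without cells with Xist and a Y-linked gene and 0.0507 with suffix A only. Bcan was -0.156 and Sparc -0.380 with suffix A only, Vcan -0.0475 with log2 of the mean TPM, and Sparc -0.0882 by highest marker, -0.156 without pool 2 cells ending in B and -0.160 with the covariate. For newborn cells, Tnc was 0.0577 by highest marker, 0.0287 with suffix A only, 0.0595 without pool 2 cells ending in B and 0.0599 with the covariate. Ptn was 0.0403 without cells with Xist and a Y-linked gene and 0.0180 without pool 2 cells ending in B. Vcan was -0.0311 with log2(TPM + 10), -0.47 with log2 of the mean TPM, -0.0041 after quantile normalization and -0.0339 with weights, Sparc 0.0075 with log2 of the mean TPM and 0.0417 at 4 markers, and Sdc2 -0.0224 with suffix A only. For interneuron-like cells, Ncan was -0.0771 with TPM over the lowest value, -0.0240 at 4 markers, -0.0486 without pool 2 cells ending in B and -0.0853 with the covariate, Tnc -0.177 with the covariate and Sparc -0.0211 with weights.

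With a profile left out, the values of genes that reversed ran from -0.54 to 0.69 for Vcan in radial glia-like cells against the excitatory neuron-like class, and from -0.92 to 0.30 for Vcan against Eomes-positive cells. In Eomes-positive cells against the excitatory neuron-like class they ran from -0.34 to 0.29 for Ptprz1, -0.12 to 0.34 for Bcan, -0.0295 to 0.81 for Vcan and -0.47 to 0.78 for Sparc. In newborn neuron-like cells they ran from -0.13 to 0.0838 for Tnc, -0.0821 to 0.0530 for Ptn, -0.35 to 0.11 for Bcan, -0.31 to 0.82 for Ncan, -0.21 to 0.25 for Vcan and -0.76 to 0.50 for Sparc. In interneuron-like cells they ran from -0.12 to 0.67 for Bcan and -0.49 to 0.76 for Sparc.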
